A study of Mus musculus with 12 samples.

Results

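Serotonin receptors are the proteins through which cells read the transmitter serotonin, and the genes described here are Htr1a, Htr1b, Htr2a, Htr2c, Htr3a, Htr4, Htr5a and Htr7. The rule that picks them names the genes and uses no measured value, although earlier results of these data were known when it was written. They are 8 of the 35580 mouse genes with at least 1 transcript in the RNA-Seq table of this study, and they hold 21 of its 115270 transcripts. The RNA came from hippocampi of adult male C57BL/6 mice (postnatal day 70), 12 in all and 3 in each of 4 groups. Control mice came from dams that drank water only and were left with dam and littermates. Ethanol mice came from dams with free access to 10% ethanol in water beside plain water during pregnancy and, per the study's methods, until postnatal day 10. Stress mice came from water-drinking dams and were isolated daily between postnatal days 2 and 14, for 3 h at a time, from the dam and the rest of the litter. Ethanol + stress mice faced both treatments. The dams set their own intake, their blood alcohol was not measured, pups for separation were drawn from within litters, and the labels do not tie mice to litters, so mice of 1 group may share a dam.

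Serotonin reaches the hippocampus in axons from the raphe nuclei of the brainstem, so the transmitter is made elsewhere while its receptors are made by hippocampal cells. All but 1 of the receptor classes are coupled to G proteins. Htr1 and Htr5 receptors couple to Gi, which lowers cyclic AMP and quiets neurons, Htr2 receptors couple to Gq, which releases calcium from internal stores, and Htr4, Htr6 and Htr7 receptors couple to Gs, which raises cyclic AMP. Htr3a encodes a subunit of a cation channel that serotonin opens directly, and in the hippocampus it is known as a mark of a class of GABA interneurons. Htr2c is also made in great amounts by the choroid plexus, the epithelium that secretes cerebrospinal fluid and borders the hippocampus.

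Of the 8 genes, 4 are listed with 1 transcript each (Htr1a, Htr2a, Htr4 and Htr5a), Htr1b and Htr3a with 2 each, Htr7 with 6 and Htr2c with 7. The sequences below are shown because the forms of Htr3a, Htr2c and Htr7 that hold most of their values differ at these places, and reads can be assigned to a form only where forms differ. Capitals mark the bases present in 1 form and absent from its partner, and each run is given 5′ to 3′ on the gene's strand with 24 shared bases on each side, from the GRCm38 genome (mm10) with the exons of GENCODE vM21.
Htr3a long form (ENSMUST00000003826.7), 18 bases at chr9:48899991-48900008, minus strand: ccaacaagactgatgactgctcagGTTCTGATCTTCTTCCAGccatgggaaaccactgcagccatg
Htr3a short form (ENSMUST00000217289.1): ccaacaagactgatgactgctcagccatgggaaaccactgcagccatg
Htr2c full-length form (ENSMUST00000036303.8), 95 bases at chrX:147169676-147169770, plus strand: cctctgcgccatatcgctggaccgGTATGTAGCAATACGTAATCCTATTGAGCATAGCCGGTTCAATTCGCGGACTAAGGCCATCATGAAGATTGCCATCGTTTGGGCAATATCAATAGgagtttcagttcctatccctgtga
Htr2c truncated form (ENSMUST00000156697.7): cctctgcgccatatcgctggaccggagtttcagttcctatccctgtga
Htr7 form with an extended exon (ENSMUST00000166074.1), 5 bases at chr19:35969304-35969308, minus strand: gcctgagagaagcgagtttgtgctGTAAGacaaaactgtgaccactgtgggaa
Htr7 form without it (ENSMUST00000164639.7): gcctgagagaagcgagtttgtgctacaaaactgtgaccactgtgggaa
The 18 bases of Htr3a are a multiple of 3, and the annotated coding sequences are 1467 bases in the long form and 1449 bases in the short form. The 95 bases of Htr2c are not a multiple of 3. The form without them has an annotated coding sequence of 516 bases against 1377 bases in the full-length form, and is known as a truncated receptor that does not bind serotonin. The stretch in capitals is also where editing of Htr2c RNA from adenosine to inosine is known to take place, which the deposited values do not measure. The 5 bases of Htr7 shift the reading frame of its tail, with coding sequences of 1305 bases with them and 1344 bases without.

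Values are labelled TPM (a level per transcript length, relative to the library's total). A library sums to 889222 to 1173650 rather than to 1000000, so the values were taken as TPM scaled between libraries by the authors. A gene's level is the sum over its transcripts. From the spacing of the lowest values each library was estimated to hold 12060000 to 14880000 assigned read pairs. The sums of the 8 genes rested on 90 to 819 estimated read pairs per library. Markers of hippocampal neurons summed to 1640 to 2090 scaled TPM in the 12 libraries. Markers of thalamus summed to 30.2 to 42.9, of striatum to 45.5 to 76.6 and of neighbouring cortex to 79.4 to 104. The lists hold different genes, so these sums do not measure how cleanly the tissue was dissected, which was not tested. Libraries stood apart in 2 respects that touch the receptors. The 12 choroid plexus markers were detected in every library, and their summed level ranged from 633 to 1880 in control, 45.1 to 3580 in ethanol, 1680 to 5350 in stress and 220 to 7340 in ethanol + stress mice. The slope of a library's values over transcript length, in log2 units per doubling of length and relative to the mean of all libraries, was −0.124 in ethanol 2 and −0.117 in ethanol + stress 2 and between −0.0816 and 0.0968 in the other libraries, so that long transcripts were read low in those 2 libraries.

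All 8 receptors were detected in all 12 libraries. Their levels, as mean ± SD of the summed scaled TPM over 12 mice, followed the order Htr2c (15.2 ± 3.42), Htr1a (12.9 ± 2.22), Htr3a (11.5 ± 1.57), Htr4 (8.80 ± 0.952), Htr2a (6.41 ± 1.07), Htr7 (6.02 ± 0.987), Htr1b (4.25 ± 0.753) and Htr5a (3.88 ± 0.863). These are middling levels, between the 35.8th percentile (Htr5a) and the 57.5th percentile (Htr2c) of the 18434 genes tested. Htr3a lay above Htr4 in 11 of 12 libraries, Htr4 above Htr2a in 11 of 12 and Htr7 above Htr1b in 12 of 12. The place of Htr7 rests on its transcripts annotated for decay: summed over coding transcripts alone it averaged 4.22, next to 4.25 for Htr1b, and was above Htr1b in 4 of 12 libraries. Htr1a lay above Htr3a in 8 of 12 libraries and Htr2a above Htr7 in 8 of 12, so these neighbours did not differ beyond their spread. Htr4 varied least over the 12 mice (coefficient of variation 10.8%), and Htr2c (22.4%) and Htr5a (22.2%) varied most.

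**Figure D1:**
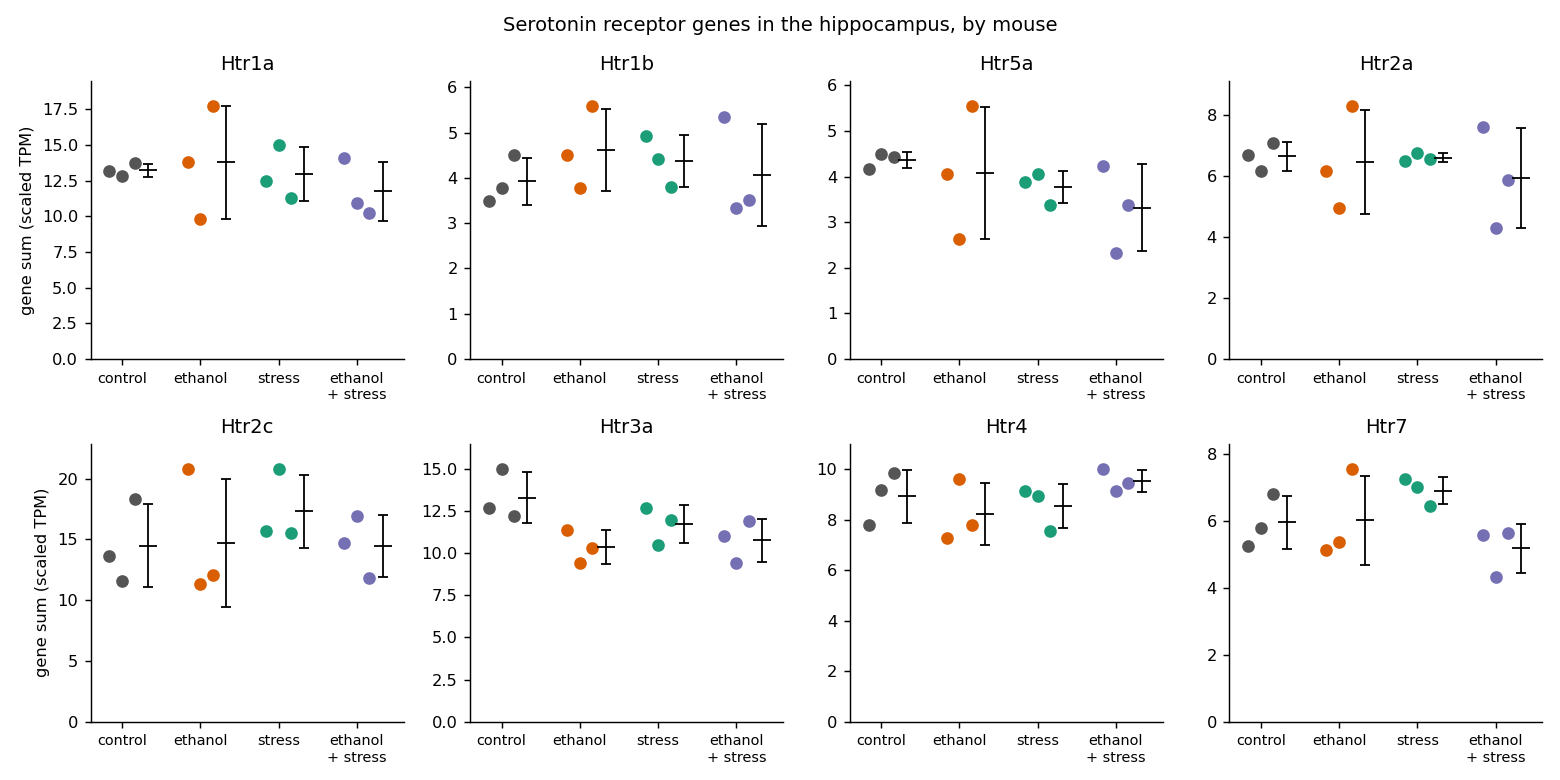
Summed scaled TPM of each serotonin receptor gene in every mouse, by group, with a panel and a linear axis from 0 for each gene. Points are single mice and bars are the group mean ± SD (n = 3). The 3 ethanol and the 3 ethanol + stress mice lie below the 3 control mice for Htr3a, and the 3 stress mice lie below control for Htr5a. In all other comparisons with control the groups overlap.

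Groups were compared on log2(value + 0.5) with limma over all 18434 genes that reached 0.1 in at least 6 libraries, which included all 8 receptors, and over 59852 transcripts, which included 17 of the 21. The 6 contrasts were each treated group against control, the interaction (whether ethanol and stress together depart from the sum of their separate differences), and both main effects (6 mice against 6). A feature was called at an unadjusted p under 0.01, and the adjusted p is Benjamini-Hochberg over all genes or all transcripts. In a bulk tissue, fewer cells of a type and less RNA per cell cannot be told apart. No receptor gene sum was called in any of the 6 contrasts. Among all genes 0.678% were called for ethanol against control, 0.51% for stress, 0.971% for ethanol + stress, 0.461% for the interaction, 1.12% for the ethanol main effect and 0.586% for the stress main effect. At an unadjusted p under 0.05, 1 of 8 receptors passed for ethanol against control, where 3.63% of all genes did. Likewise 1 of 8 passed for ethanol + stress (5.37% of all genes) and for the ethanol main effect (5.79%), and 0 of 8 passed for stress (2.4% of all genes), the interaction (2.69%) and the stress main effect (3.28%). That receptor was Htr3a each time, lower in the treated mice. The lowest adjusted p of any receptor gene sum was 0.760. Of the 17 transcripts 2 were called for the ethanol main effect (1.47% of all transcripts) and 0 in the other contrasts, in which 1.26% (ethanol), 0.914% (stress), 1.21% (ethanol + stress), 0.854% (interaction) and 0.934% (stress main effect) of all transcripts were called. The 2 were a form of Htr3a and a low transcript of Htr7, and the Htr7 one passed the filter on low values mainly through mice without ethanol.

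The median log2 difference of the 8 receptors was −0.04 for ethanol against control (all genes, 0.02), −0.02 for stress (all genes, 0.00) and −0.18 for ethanol + stress (all genes, 0.02), with 5 of 8 receptors lower in each. Of all genes 44.4% were lower for ethanol, 48.5% for stress and 45.9% for ethanol + stress. The 3 comparisons share the control mice. Apart from Htr3a for ethanol and for ethanol + stress, every 2 SE interval of a receptor against control held 0. The 2 SE intervals of the 8 receptors against control reached at most 0.74 upwards, for Htr2c in stress, and −0.87 downwards, for Htr5a in ethanol + stress. With libraries rescaled to a sum of 1000000, which moves every gene of a library by the same factor, the median for ethanol + stress was −0.31 for the receptors and −0.09 for all genes, and all 8 receptors and 65.8% of all genes were lower. Without ethanol 2 and ethanol + stress 2 the median was 0.10 for ethanol and −0.09 for ethanol + stress, and 2 of 8 were lower for ethanol.

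**Figure D2:**
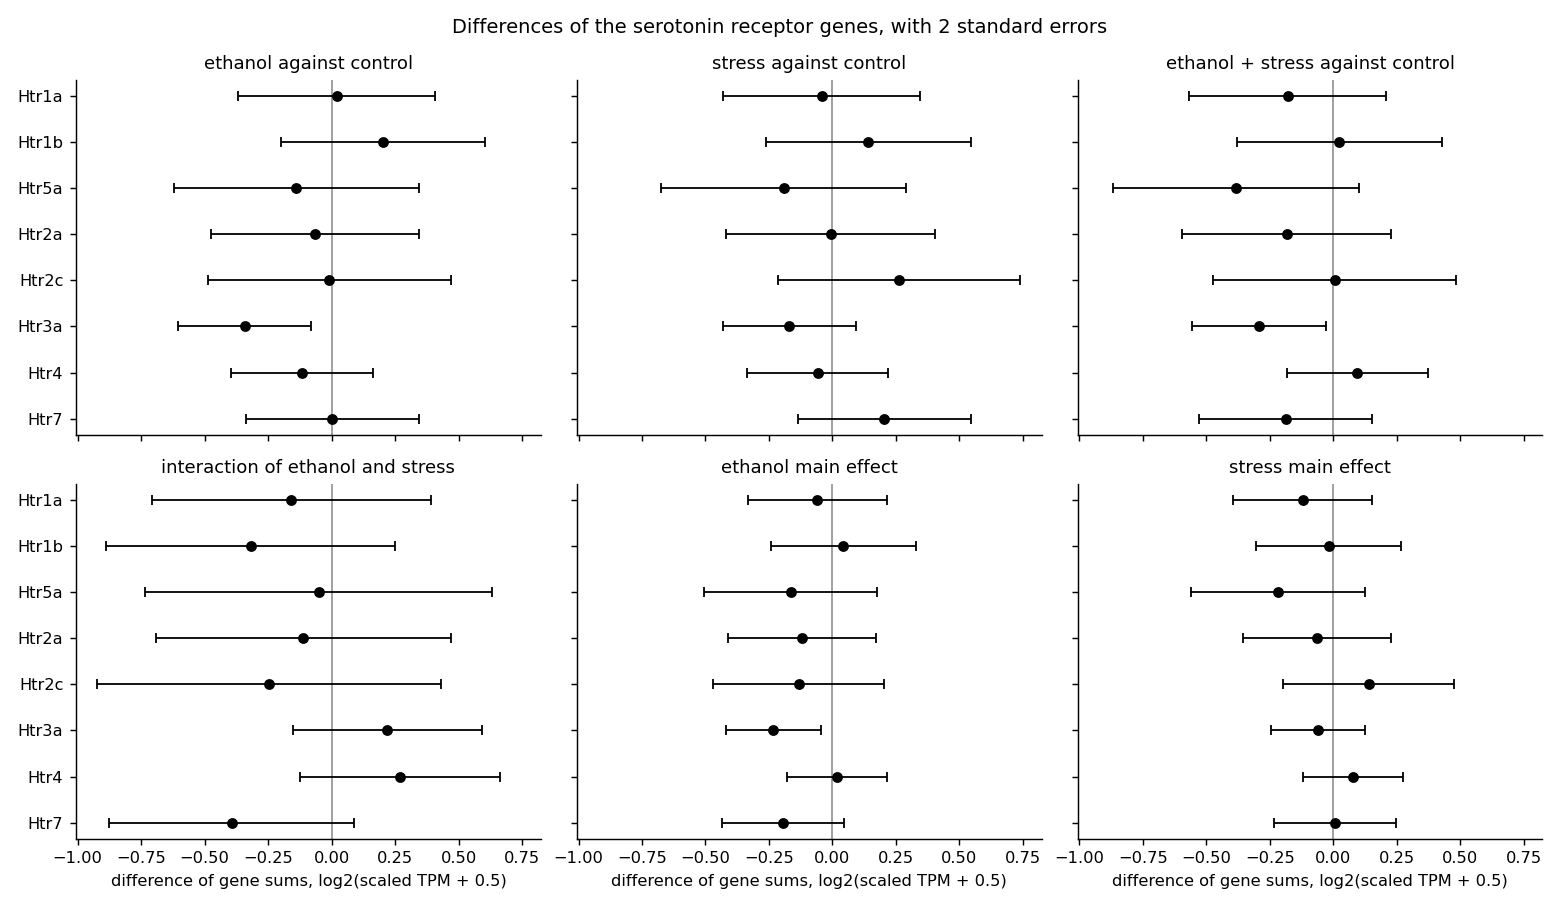
Log2 difference of each receptor's gene sum in the 6 contrasts, on the log2(scaled TPM + 0.5) scale, with bars of 2 SE from limma (12 mice). The bars of Htr3a lie below 0 for ethanol (−0.61 to −0.08), ethanol + stress (−0.55 to −0.03) and the ethanol main effect (−0.42 to −0.05), and every other bar crosses 0.

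Htr3a was the receptor with the clearest difference. Its gene (ENSMUSG00000032269.8) lies on the minus strand at chr9:48899213-48911099. Its summed level was 12.7, 15.0 and 12.2 scaled TPM in the control mice, 11.4, 9.42 and 10.3 in ethanol, 12.7, 10.5 and 12 in stress and 11, 9.41 and 11.9 in ethanol + stress. The 3 ethanol mice and the 3 ethanol + stress mice were all below the lowest control mouse, while stress overlapped control. The log2 difference was −0.34 (SE 0.13, adjusted p = 0.997) for ethanol and −0.29 (SE 0.13, adjusted p = 0.791) for ethanol + stress, 0.789-fold and 0.817-fold. Groups failed to overlap in 8.25% of all genes for ethanol (3.19% with ethanol lower) and in 10.2% for ethanol + stress (4.62% lower). Over 6 against 6 mice the mean was 12.5 without and 10.6 with ethanol, a log2 difference of −0.23 (SE 0.093, adjusted p = 0.760, exact permutation test over mice, two-sided, p = 0.0216). The value for this exact test was chosen after it was seen. With 3 mice against 3 such a test cannot go below 0.1. The interaction was 0.22 (2 SE interval −0.15 to 0.59). Over 25 alternative fits the difference of ethanol from control ran from −0.42 to −0.26, and it was called in none. Without ethanol 2 and ethanol + stress 2 the main effect was −0.16 (SE 0.097). The gene sum had r = −0.06 with the mean level of 12 choroid plexus markers over the 12 libraries and −0.73 without ethanol 2 and ethanol 3, the libraries farthest from the median of the markers. The short form had r = −0.14, and −0.66 on deviations from the group means. With the marker level as a covariate the main effect was −0.26 (SE 0.099) for the gene sum, not called, and −0.42 (SE 0.10) for the short form, called.

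The short form of Htr3a, which held 83.5% of the gene's summed level, was lower in the mice with ethanol. The short form was at 11.8, 12.3 and 10.4 scaled TPM in control, 8.09, 8.88 and 7.87 in ethanol, 10.7, 8.99 and 11.3 in stress and 7.55, 7.75 and 10.0 in ethanol + stress, on 120 to 187 read pairs per library. Every ethanol and ethanol + stress mouse was below every control mouse, and the highest ethanol + stress mouse overlapped the stress group. Groups failed to overlap in 10.2% of all transcripts for each of these comparisons, with the treated group lower in 3.48% for ethanol and 4.23% for ethanol + stress. It was 1 of the 2 receptor transcripts called for the ethanol main effect. Its mean was 10.9 without and 8.36 with ethanol, a log2 difference of −0.37 (SE 0.10, adjusted p = 0.653, exact permutation test p = 0.00433), 0.776-fold. The short form was chosen for the exact test after its values were seen. Against control alone it was −0.45 (SE 0.15, adjusted p = 0.779) in ethanol and −0.44 (SE 0.15, adjusted p = 0.845) in ethanol + stress, neither called. In stress it was −0.15 (SE 0.15), and the interaction was 0.17 (SE 0.21).

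The call for the short form lay close to the threshold. Leaving out any of control 1, control 2, ethanol 1, ethanol 3, stress 1, stress 3, ethanol + stress 1 or ethanol + stress 2 ended it, while the difference stayed between −0.43 and −0.33 in all 12 fits without 1 library. Without ethanol + stress 3, the mouse with the highest level in its group, the main effect was −0.43 and both comparisons with control were called (−0.45 for ethanol and −0.56 for ethanol + stress). Without ethanol 2 and ethanol + stress 2, the libraries of lowest slope over transcript length, it was −0.36 (SE 0.12) and not called. The call also ended with the replicate numbers as a block in the fit. With the trend over transcript length removed the main effect was −0.39 and called, as were both comparisons (−0.47 for ethanol and −0.46 for ethanol + stress).

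The long form of Htr3a was low and scattered. It was at 0.808, 2.66 and 1.86 in control, 3.26, 0.540 and 2.46 in ethanol, 2.05, 1.54 and 0.685 in stress and 3.47, 1.67 and 1.88 in ethanol + stress, on 7.69 to 58.1 read pairs. The groups overlapped, and the ethanol main effect was 0.33 (SE 0.38). Its share of the gene's level ran from 5.71% in 1 stress mouse to 31.5% in 1 ethanol + stress mouse. The forms share most of their sequence, and the split between them was estimated from the few reads that cross the places where they differ.

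**Figure D3:**
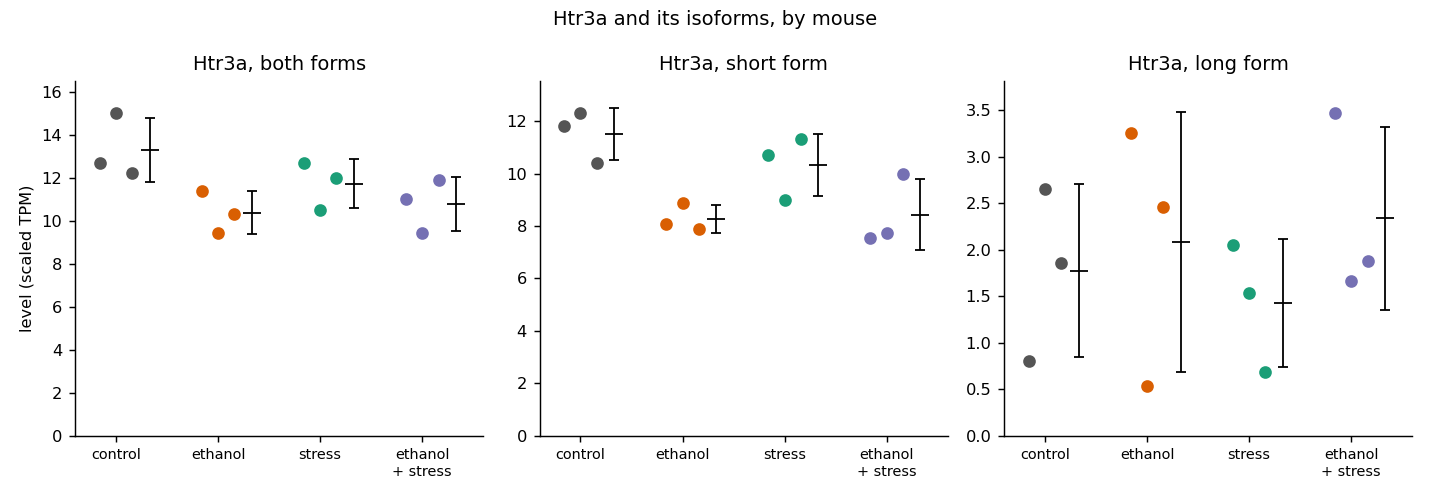
Scaled TPM of Htr3a in every mouse by group, for both forms summed, for the short form and for the long form, with the group mean ± SD (n = 3). The short form runs from 10.4 to 12.3 in control mice and from 7.55 to 10.0 in the mice with ethanol, and the long form overlaps between groups.

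Htr3a marks interneurons, and the 13 interneuron markers were read beside it. None was called in any contrast. Their summed level was 1750 to 2000 scaled TPM in control, 1730 to 1840 in ethanol, 1710 to 1960 in stress and 1690 to 1760 in ethanol + stress. For ethanol against control 10 of 13 were lower and 3 higher, where 44.4% of all genes were lower. The median log2 difference was −0.10, and 0 of 13 had an unadjusted p under 0.05 (3.63% of all genes). For ethanol + stress against control 9 of 13 were lower and 4 higher, where 45.9% of all genes were lower. The median log2 difference was −0.09, and 3 of 13 had an unadjusted p under 0.05, where 5.37% of all genes did. All 3 were lower: Npy, a neuropeptide (log2 difference −0.27), Slc32a1, the vesicular GABA transporter (−0.41), and Reln, a secreted matrix protein (−0.71). Npy and Slc32a1 also did so for the ethanol main effect, where 5.79% of all genes did. In that contrast 11 of 13 markers and 44.4% of all genes were lower. The part of interneuron content in the Htr3a difference was not tested. Htr3b, which encodes a partner subunit of the channel, was at 0 to 0.0998 scaled TPM and below the filter.

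Htr2c encodes the Gq-coupled receptor made by neurons and choroid plexus, and its gene (ENSMUSG00000041380.13) lies at chrX:146962513-147197277, plus strand. Its summed level was 13.6, 11.6 and 18.3 scaled TPM in control, 20.8, 11.3 and 12.1 in ethanol, 15.7, 20.8 and 15.5 in stress and 14.7, 16.9 and 11.8 in ethanol + stress. All groups overlapped. The log2 difference was 0.26 for stress (2 SE interval −0.22 to 0.74), −0.01 for ethanol and 0.01 for ethanol + stress.

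The forms of Htr2c did not follow the same order over the groups. The full-length form, 68.4% of the sum, was at 10.3, 9.89 and 15.5 in control, 13.9, 8.09 and 9.95 in ethanol, 10.6, 11.2 and 9.01 in stress and 7.92, 9.46 and 9.39 in ethanol + stress. Ethanol + stress lay below control without overlap, at a log2 difference of −0.37 that was not called, where 10.2% of all transcripts failed to overlap (4.23% lower). The truncated form, 22.4% of the sum, was at 2.17, 0.832 and 1.47 in control, 4.94, 0.670 and 1.93 in ethanol, 2.81, 7.75 and 5.08 in stress and 5.87, 5.32 and 2.09 in ethanol + stress, on 22.6 to 260 read pairs. All 3 stress mice were above all 3 control mice, and 8.22% of all transcripts failed to overlap in that comparison. The log2 difference was 1.48 (SE 0.58, adjusted p = 1) for stress, 1.26 (SE 0.58) for ethanol + stress and 0.38 (SE 0.58) for ethanol. Over 6 against 6 mice the mean was 2.00 without and 4.82 with separation (1.18, SE 0.41, adjusted p = 1, exact permutation test p = 0.0173), which was not called. The truncated form, too, was chosen for the exact test after its values were seen.

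As a share of the full-length and truncated forms together, the truncated form took 16%, 7.27% and 8.14% in control, 25.1%, 6.52% and 16.2% in ethanol, 19.6%, 39.5% and 33.5% in stress and 41.4%, 36.0% and 18.2% in ethanol + stress. Stress and ethanol + stress mice had higher shares than every control mouse. Groups of 3 failed to overlap in the level of 8.22% (stress) and 10.2% (ethanol + stress) of all transcripts, and the level of the truncated form itself overlapped control in ethanol + stress (2.09 against 2.17). The group means were 10.5% ± 4.83, 15.9% ± 9.27, 30.9% ± 10.2 and 31.9% ± 12.2 (SD, n = 3).

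Htr2c moved with the choroid plexus markers. Over the 12 libraries the log2 level of Htr2c and the mean log2 level of the 12 markers had Pearson's r = 0.87 (permutation p = 0.00049, adjusted p = 0.108 over all genes) and Spearman's rho = 0.87 (permutation p = 0.0006). Without ethanol 2 and ethanol 3, farthest from the median of the markers, r was 0.85, and r of the deviations from the group means was 0.92. Of all genes, 0.331% had a larger r. The truncated form (r = 0.76) and the form with a retained intron (r = 0.76), which was at 0.0622 to 1.99 scaled TPM, followed the markers more closely than the full-length form (r = 0.34, permutation p = 0.281), and on deviations from the group means these r were 0.79, 0.88 and 0.58, although the difference between these correlations was not tested. The 7 other receptors had r between −0.24 and 0.06. Beside Htr3a, r moved for Htr1a without the 2 farthest libraries (0.44) and for Htr7 on deviations from the group means (−0.51). The mean marker level was 2.42 to 3.59 in control and 3.33 to 4.92 in stress mice on the log2 scale, with none of the 12 markers called in any contrast. With this level as a covariate, chosen after the data were seen, the difference of the truncated form with separation was 0.65 (SE 0.32) in place of 1.18. Without ethanol 2 and ethanol + stress 2 it was 0.82 (SE 0.40), and it was called without ethanol 1 (1.46), without stress 1 (1.35) or without ethanol + stress 3 (1.39).

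**Figure D4:**
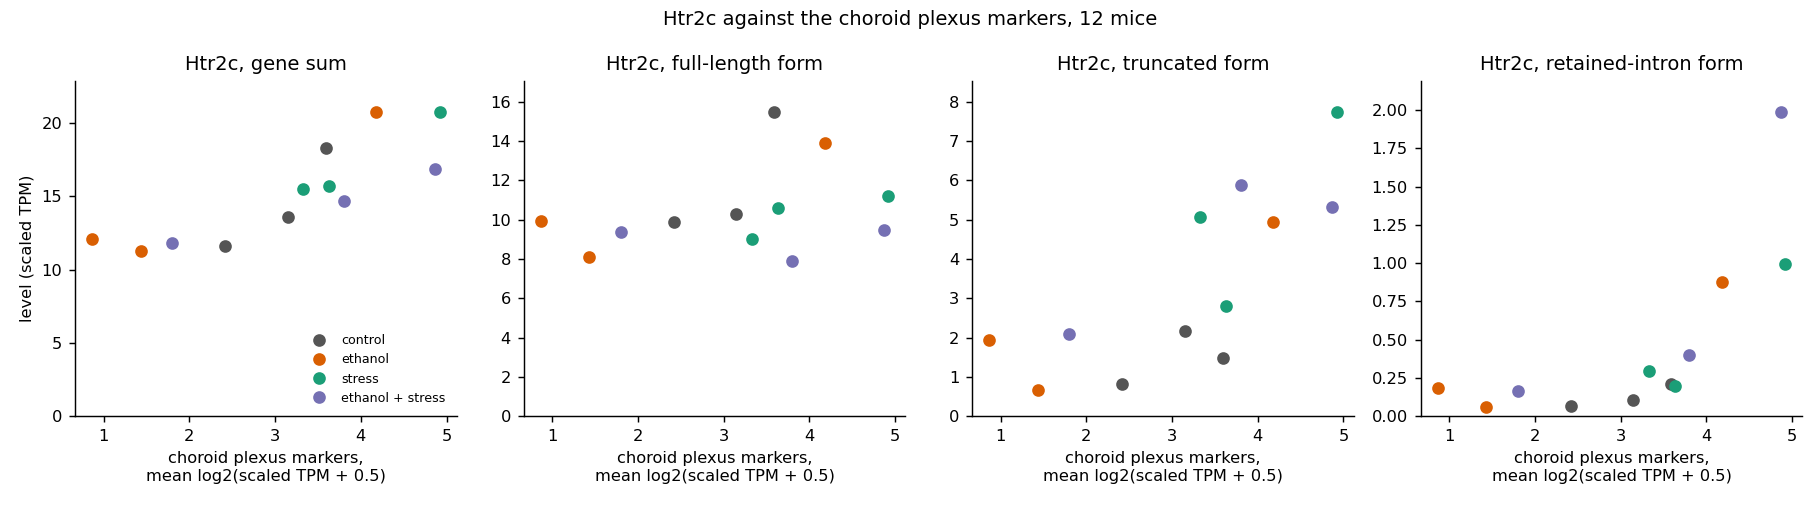
Scaled TPM of Htr2c (gene sum, full-length form, truncated form and retained-intron form) against the mean log2 level of 12 choroid plexus markers in the same library, with 1 point per mouse, marked by group (n = 12). The gene sum (r = 0.87) and the truncated form (r = 0.76) are higher in libraries with more marker RNA, and the full-length form (r = 0.34) less so.

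A further coding transcript of Htr2c with 134 bases more in its exons (ENSMUST00000096299.8, 4.57% of the sum) was at 1.09, 0.724 and 1.14 in control, 0.861, 1.52 and 0 in ethanol, 0.887, 0.713 and 1.06 in stress and 0.377, 0.002 and 0 in ethanol + stress. Ethanol + stress lay below control without overlap (−1.29, SE 0.46, adjusted p = 0.873), where 10.2% of all transcripts failed to overlap. The values are estimates over forms that share most of their sequence, and 2 of them are listed at 0. This difference was not called with all libraries but was without ethanol 2 or without ethanol 3, at the same size. For the ethanol main effect it was −0.80 (SE 0.33), and it was called without ethanol 2 (−1.01). Over the 12 fits without 1 library this main effect ran from −1.01 to −0.51. For the stress main effect it was called without ethanol 3, the separated mice lower (−0.78). The other 3 Htr2c transcripts were too low to be tested.

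Htr2a, the other Gq-coupled receptor, is the target of classical hallucinogens and is found on pyramidal cells and interneurons (ENSMUSG00000034997.5, chr14:74640840-74709494, plus strand). It was at 6.70, 6.16 and 7.10 scaled TPM in control, 6.16, 4.94 and 8.29 in ethanol, 6.49, 6.76 and 6.56 in stress and 7.60, 4.31 and 5.88 in ethanol + stress. Stress mice were tightly grouped within the control range, and the lowest mice of the other groups were ethanol 2 and ethanol + stress 2. No difference from control exceeded its error, with 2 SE intervals of −0.48 to 0.35 for ethanol, −0.42 to 0.40 for stress and −0.59 to 0.23 for ethanol + stress.

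Htr1a, which encodes the Gi-coupled receptor of pyramidal and granule cells and the autoreceptor of raphe neurons, is a gene of 1 exon here (ENSMUSG00000021721.5, chr13:105443639-105448122, plus strand). It was at 13.2, 12.8 and 13.7 in control, 13.8, 9.83 and 17.7 in ethanol, 12.5, 15.0 and 11.3 in stress and 14.1, 10.9 and 10.2 in ethanol + stress. Control mice differed little (SD 0.434) and ethanol mice widely (SD 3.95), and the groups overlapped. The log2 differences from control were 0.02 (−0.37 to 0.41) for ethanol, −0.04 (−0.43 to 0.35) for stress and −0.18 (−0.57 to 0.21) for ethanol + stress.

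Htr5a, also Gi-coupled (ENSMUSG00000039106.6, chr5:27842149-27855088, plus strand), was at 4.17, 4.50 and 4.42 in control, 4.06, 2.63 and 5.54 in ethanol, 3.88, 4.05 and 3.37 in stress and 4.23, 2.33 and 3.38 in ethanol + stress. The 3 stress mice were below the 3 control mice, on a difference of −0.19 (SE 0.24), where 7.2% of all genes failed to overlap (3.39% with stress lower). For ethanol + stress it was −0.38 (SE 0.24).

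Htr1a, Htr2a and Htr5a varied together over the 12 mice, with Pearson's r of 0.91 between Htr2a and Htr5a, 0.86 between Htr1a and Htr5a and 0.80 between Htr1a and Htr2a. Htr1b varied with them less closely (r = 0.76 with Htr1a, 0.75 with Htr2a and 0.67 with Htr5a), and Htr7 had r = 0.72 with Htr2a. These points share their libraries. Htr2a and Htr5a were lowest in ethanol + stress 2 and then ethanol 2, Htr1a was lowest in ethanol 2, all 3 were highest in ethanol 3, and all 3 followed the slope of the library over transcript length. For Htr2a r was 0.90 (permutation p = 3e-05, adjusted p = 0.000511 over all genes, rho = 0.93, permutation test), for Htr5a 0.89 (7e-05, adjusted p = 0.000892, rho = 0.83) and for Htr1a 0.88 (9e-05, adjusted p = 0.00106, rho = 0.90). Without the 2 libraries farthest from the median slope r was 0.80, 0.76 and 0.84. The slope was itself fitted to gene levels of these same libraries, these 3 genes included. Long genes thus follow it in part by construction, and the permutation p-values do not allow for that. Between 3.96% and 4.55% of all genes had a larger r than these 3 genes. Their transcripts are 5606, 5376 and 4484 bases long. Htr4, with a transcript of 4661 bases, had r = −0.15, Htr3a, whose forms are 2082 and 1987 bases long, had r = 0.34, and Htr1b (0.66), Htr7 (0.61) and Htr2c (0.20) lay between or below, none of these at an adjusted p under 0.05. On deviations from the group means r was 0.81 for Htr1b and 0.63 for Htr7. With the length trend removed from each library, the ethanol + stress difference of Htr5a was −0.29 (SE 0.20), and without the 2 libraries of lowest slope it was −0.18 (SE 0.18).

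**Figure D5:**
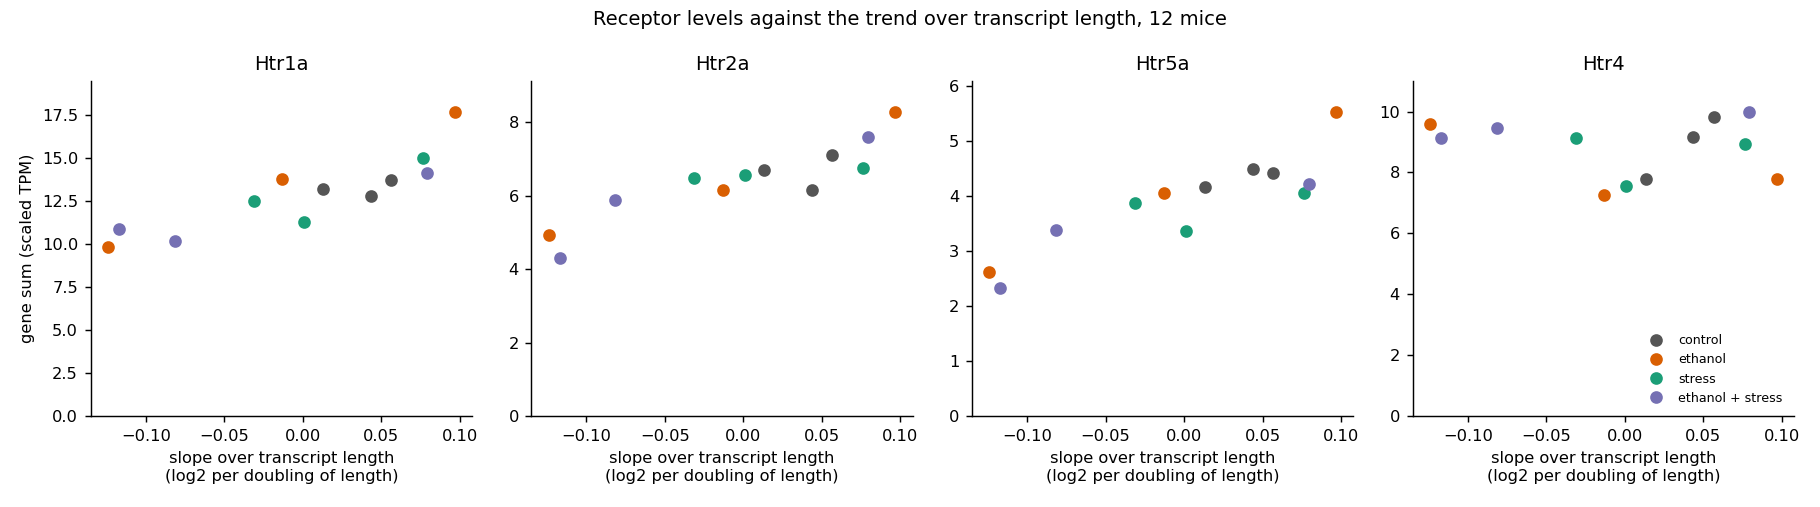
Scaled TPM of Htr1a, Htr2a, Htr5a and Htr4 against the slope of each library's values over transcript length (log2 units per doubling of length, relative to the mean of all libraries), with 1 point per mouse, marked by group (n = 12). Htr1a (r = 0.88), Htr2a (r = 0.90) and Htr5a (r = 0.89) rise with the slope from ethanol 2 and ethanol + stress 2 at the left to ethanol 3 at the right, and Htr4 (r = −0.15) does not.

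Htr1b, the Gi-coupled receptor of axon terminals (ENSMUSG00000049511.5, chr9:81628291-81633828, minus strand), was at 3.50, 3.77 and 4.51 in control, 4.50, 3.78 and 5.58 in ethanol, 4.93, 4.42 and 3.79 in stress and 5.35, 3.33 and 3.51 in ethanol + stress. The groups overlapped, with the largest difference from control at 0.20 (−0.20 to 0.60) for ethanol. Its long transcript (ENSMUST00000183482.1) held 79.6% of the sum. It was at 3.5, 3.77 and 3.91 in control, 3.83, 2.27 and 3.8 in ethanol, 3.92, 3.46 and 2.99 in stress and 3.49, 3.33 and 2.35 in ethanol + stress. Ethanol + stress lay below control without overlap, by as little as 3.49 against 3.5. The log2 difference was −0.26 (2 SE interval −0.73 to 0.21) and not called, where 10.2% of all transcripts failed to overlap (4.23% lower). The short transcript of Htr1b (ENSMUST00000051005.4) lies wholly within the sequence of the long one and was at 0, 0 and 0.604 in control, 0.669, 1.51 and 1.78 in ethanol, 1.02, 0.961 and 0.805 in stress and 1.87, 0 and 1.16 in ethanol + stress. It rested on at most 17.7 read pairs per library. Ethanol and stress mice were above control mice without overlap, at fitted differences of 1.43 (SE 0.55, adjusted p = 0.866) and 1.13 (SE 0.55), where 10.2% and 8.22% of all transcripts failed to overlap. Neither was called. Without ethanol + stress 2, in which it was listed at 0, it was called for ethanol (1.43) and for ethanol + stress (1.61). With no sequence of its own, its split from the long transcript is uncertain.

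The Gs-coupled receptors were Htr4 and Htr7. Htr4, found on pyramidal and granule cells (ENSMUSG00000026322.9, chromosome 18), was at 7.77, 9.17 and 9.83 in control, 7.27, 9.60 and 7.78 in ethanol, 9.14, 8.93 and 7.55 in stress and 10.0, 9.13 and 9.46 in ethanol + stress. It was the steadiest receptor, with all groups overlapping and 2 SE intervals against control of −0.39 to 0.16 for ethanol, −0.34 to 0.22 for stress and −0.18 to 0.37 for ethanol + stress.

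Htr7 (ENSMUSG00000024798.15, chr19:35958734-36057507, minus strand), a receptor linked to circadian timing and mood, was at 5.26, 5.81 and 6.82 in control, 5.14, 5.39 and 7.56 in ethanol, 7.27, 7.01 and 6.46 in stress and 5.58, 4.33 and 5.64 in ethanol + stress. Stress mice were highest on average and ethanol + stress mice lowest, and both overlapped control. The log2 difference was 0.00 for ethanol, 0.20 (SE 0.17) for stress and −0.19 (SE 0.17) for ethanol + stress, with an interaction of −0.39 (SE 0.24).

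The value of Htr7 depended on which of its transcripts were summed. Over its coding transcripts alone it was at 3.43, 2.70 and 3.46 in control, 4.42, 3.64 and 4.10 in ethanol, 6.33, 6.14 and 4.82 in stress and 4.58, 2.89 and 4.10 in ethanol + stress. All 3 stress mice were above all 3 control mice, where 6.97% of all coding sums failed to overlap. All 3 ethanol mice were above them too, where 7.89% failed to overlap, at a difference of 0.31 (SE 0.18) that was not called. Ethanol + stress overlapped control, with a mean of 3.86 against 3.19, whereas on the full sum the means were 5.18 and 5.96. On the coding sum Htr7 rose in stress against control (0.76, SE 0.18, adjusted p = 1) and had a negative interaction (−0.84, SE 0.25, adjusted p = 1), both called. Among coding sums of all genes, 0.342% were called for stress and 0.428% for the interaction. Most of what this sum leaves out lies in a pair of transcripts annotated for nonsense-mediated decay. ENSMUST00000165215.7 (19.7% of the full sum) was at 6.65e-06, 2.95 and 0.706 in control, 0.719, 1.42 and 2.63 in ethanol, 0.520, 0 and 1.30 in stress and 0.997, 1.44 and 1.54 in ethanol + stress, and ENSMUST00000164781.1 (6.74%), below the filter, was at 1.57, 0 and 2.47 in control, at 0.826 in ethanol 3 and at or next to 0 in the other 8 mice. Both differed widely between mice of 1 group, control mice included.

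The transcript of Htr7 without the extended exon, 36.9% of the full sum, was at 2.21, 0.011 and 1.89 in control, 2.86, 0.663 and 3.36 in ethanol, 3.75, 2.89 and 3.84 in stress and 1.89, 1.34 and 1.99 in ethanol + stress. Stress mice were above control mice (1.41, SE 0.62, adjusted p = 1, not called), where 8.22% of all transcripts failed to overlap. Over the 12 fits without 1 library the difference ran from 0.64 to 1.84. The level was close to 0 in 1 control mouse. In that mouse the transcript with the extended exon, 28.6% of the sum, was at 2.55 against 0.834 and 0.772 in the other control mice. A minor coding transcript (ENSMUST00000099505.3, 4.51% of the sum) was at 0 to 0.793 over the 12 mice, overlapped between groups and was not called. A further transcript annotated for decay (ENSMUST00000170360.1, 3.54% of the sum) was at 0.263, 0.163 and 0.181 in control, 0, 0.328 and 0 in ethanol, 0.413, 0.867 and 0.343 in stress and 0 in all 3 ethanol + stress mice. It was listed at 0 in 5 of the 6 mice with ethanol and in none of the other 6. It was the other receptor transcript called for the ethanol main effect (fitted difference −0.63, SE 0.17, adjusted p = 0.593), on at most 11.7 read pairs per library, and the size of the difference depends on the 0.5 added before the log. It reached 0.1 in 7 libraries, 6 of them without ethanol, so passing the filter and being lower with ethanol go together, and the call is no support for a difference.

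The other receptors and the serotonin pathway gave no call. Of 6 further receptor genes 5 were tested: Htr5b was at 5.25 to 8.56 scaled TPM over the 12 libraries, Htr1f at 1.22 to 2.69, Htr6 at 0.789 to 1.64, Htr2b at 0.0666 to 1.29 and Htr1d at 0.0542 to 0.322. Of 9 genes of serotonin synthesis, transport and breakdown 8 were tested. Tph2, the enzyme that begins serotonin synthesis in neurons, was at 0.714 to 2.67 scaled TPM and Tph1, its counterpart outside the brain, at 0.299 to 2.20. Neither differed from control beyond its error in any group. Slc6a4, the serotonin transporter, was at 0 to 0.570 and below the filter, with 11 of 12 libraries at or under 3 estimated read pairs, and Fev, the transcription factor of serotonergic neurons, was listed at 0 in all 12 libraries. Transporter and Fev RNA were thus not detectable above this floor in most libraries at this depth.

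Downstream of the receptors, none of the 10 genes of Gi signalling, the 9 of Gq signalling and the 12 of Gs signalling was called in any contrast. Of 13 partners and regulators of the receptors 1 was called. Dlg4, the scaffold protein PSD-95 of excitatory synapses, was called higher for the ethanol main effect (0.20, SE 0.063, adjusted p = 0.760), where 1.12% of all genes were called. It was at 217, 219 and 206 scaled TPM in control, 243, 270 and 220 in ethanol, 211, 212 and 228 in stress and 238, 248 and 267 in ethanol + stress. Every mouse with ethanol was above every control mouse, by as little as 220.0 against 219, and 1 stress mouse overlapped the ethanol group. Of all genes 8.25% failed to overlap for ethanol (5.06% with ethanol higher) and 10.2% for ethanol + stress (5.63% higher). The highest mice, ethanol 2, ethanol + stress 3 and ethanol + stress 2, were the 3 libraries with the lowest slope over transcript length (−0.124, −0.0816 and −0.117) and the largest sums. With libraries rescaled to a sum of 1000000 the values were 220.0, 230.0 and 219 in control, 242, 230.0 and 247 in ethanol, 206, 231 and 233 in stress and 258, 220.0 and 236 in ethanol + stress. Ethanol 2 then equalled control 2, the highest control mouse, at this rounding, and stress 2 and stress 3 lay above both. Ethanol + stress overlapped control, and the main effect was 0.10 (SE 0.061) and not called. Without ethanol 2 and ethanol + stress 2 it was 0.17 (SE 0.064) and not called, and with the length trend removed it was 0.21 (SE 0.067) and called. The call also ended with a filter at 1 (0.20, SE 0.065), without the eBayes trend (0.20, SE 0.072), over coding transcripts alone (0.20, SE 0.065) and with the choroid marker covariate (0.19, SE 0.070), and it was made in 2 of 12 fits without 1 library.

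Among the markers of hippocampal neurons read beside the receptors, 1 of 6 for dentate granule cells and 1 of 9 for CA3 and CA2 pyramidal cells were called. C1ql2, a secreted synaptic protein of granule cells, was lower with ethanol (−0.30, SE 0.093, adjusted p = 0.760), at 32.4 to 46.3 scaled TPM in the 6 mice with and 47.3 to 57.1 in the 6 without it. For this comparison 1.12% of all genes were called and 0.108% did not overlap with ethanol lower. The call held with libraries rescaled (−0.40, SE 0.11) and with the length trend removed (−0.32, SE 0.092), ended without ethanol 2 and ethanol + stress 2 (−0.34, SE 0.11) and without the eBayes trend (−0.30, SE 0.10), and was made in 5 of 12 fits without 1 library. Iyd, an iodide-recycling enzyme, was higher in ethanol + stress (7.80 to 9.05) than in control mice (4.12 to 7), by 0.61 (SE 0.19, adjusted p = 0.791), where 0.971% of all genes were called and 10.2% did not overlap. The call ended with libraries rescaled (0.48, SE 0.24), with the length trend removed (0.48, SE 0.24), over coding transcripts alone (0.37, SE 0.28), with only the groups compared in the fit (0.61, SE 0.20) and without ethanol 2 and ethanol + stress 2 (0.66, SE 0.22), and was made in 4 of 12 fits without 1 library.

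The genes most like each receptor over the 12 libraries were found by Pearson's r of log2 levels among 14455 genes with a mean of at least 1. For Htr1a they were Gtpbp4 (0.96) and Synj2 (0.94), for Htr1b Ttll1 (0.91) and Trib2 (0.91), and for Htr2a Ptprs (0.98) and Zfp282 (0.96). For Htr2c they were Rnf152 (0.96) and Vat1l (0.94), for Htr5a Crim1 (0.97) and Chd5 (0.96), and for Htr7 Ptp4a3 (0.92) and Il17rd (0.91). The closest genes were less alike for Htr3a, Supv3l1 (0.84) and Cct2 (0.84), and for Htr4, Ska2 (0.86) and Gm8325 (0.82). These are the largest of 14455 values over the same 12 libraries, whose slope over length and choroid plexus content they share.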

How the data were processed

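Hippocampal RNA of 12 mice was sequenced as stranded, rRNA-depleted, paired-end libraries. The deposited values are a signal made by the authors: reads were assigned to Ensembl mouse transcripts with kallisto (CASAVA, kallisto, sleuth and mm10 are named in the submitters' processing notes, with versions not given in the sources used here), and TPM were scaled between libraries. Of 115270 transcripts 113580 were matched to GENCODE vM21 by identifier, and the unmatched ones held 0.518 to 0.58% of a library. Gene sums and transcripts were tested as log2(value + 0.5) with limma 3.58.1 in R 4.3.3 (group means over 12 libraries, eBayes with trend) after requiring 0.1 in at least 6 libraries. Sums and figures were made with Python 3.11.15, pandas 2.3.3, numpy 2.4.6, scipy 1.17.1 and matplotlib 3.10.9, and the fit was tested on simulated data. Read pairs were estimated from the spacing of low values, of which 78.1 to 82.7% were whole multiples within 0.1 (20% by chance). They are estimates, so no count test was run, and they cover counting error only. Exact permutation tests (6 mice against 6, two-sided) were run on 3 values chosen after they were seen. Correlations used 100000 permutations.

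The receptors and gene lists were chosen with earlier results of these data known. Named were all receptors and their tested transcripts, list genes called in any contrast, the synthesis enzymes and transporter, and the 2 genes most like each receptor. Htr3b, Slc6a4, Fev, Reln, Npy, Slc32a1 and the further receptors were named beside these for context. Sequences came from the GRCm38 genome. Alternatives covered pseudocount, filter, scaling, eBayes trend, the groups in the fit, a replicate block, leaving out each library and coding transcripts only. A length trend, a choroid marker covariate and leaving out ethanol 2 with ethanol + stress 2 were added after seeing the data, as were these fits of the called list genes.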

Additional observations from a re-analysis of the deposited data

Results flagged for a closer look

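The Htr7 transcript ENSMUST00000170360.1 had the only receptor transcript interaction of ethanol and stress with an unadjusted p under 0.05 (1 of 17, where 4.06% of all transcripts had one), which does not reach a call: −0.78 on the log2(scaled TPM + 0.5) scale (SE 0.33, limma, adjusted p = 1). All 3 stress mice were above the control mice, and all 3 ethanol + stress mice were listed at 0, below them, where 8.22% and 10.2% (4.23% lower) of all transcripts failed to overlap. The transcript rested on at most 11.7 estimated read pairs in a library, and of the 7 libraries in which it reached the filter's 0.1, 6 were without ethanol. Groups of 3 mice were too small to single out a library by its distance from the others.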

How the results depend on the processing

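The 6 counts of called gene sums (0 in each) and the 6 of called transcripts (2 for the ethanol main effect, 0 otherwise) gave 288 alternative counts, of which 256 lay within 1.5 times the reported one. With coding transcripts only, 1 receptor sum (Htr7) was called for stress against control and 1 (Htr7) for the interaction, and the level of Htr7 over 12 mice was 4.22 in place of 6.02. For ethanol against control 1 transcript was called with no filter on low values, with libraries rescaled to a sum of 1000000, with the length trend removed and with the choroid marker covariate. For ethanol + stress against control 1 was called with no filter, with rescaling, with only the groups compared in the fit, with the length trend removed and without ethanol 2 and ethanol + stress 2. For the ethanol main effect 1 was called with a filter at 1, under the replicate block, and without ethanol 2 and ethanol + stress 2. Leaving out 1 library gave 0 to 1 called transcripts for ethanol, ethanol + stress and the stress main effect, 1 to 3 for the ethanol main effect, and 0 in all other counts. Of 351 alternative fold changes of receptors with an unadjusted p under 0.05, 324 kept their side of the threshold, 17 passed it, 10 fell short of it and 0 changed sign. The causes were not tested. Among pairs of libraries from different groups, 1 of 18 with the same replicate number had deviations correlated above 0.1 (median r −0.0136), against 6 of 36 with different numbers (median 0.0249). The 1 same-number pair above 0.1 was ethanol 2 with ethanol + stress 2 (r = 0.164). Mice of water-drinking and ethanol-drinking dams cannot be littermates, and the pairs that can be were not taken apart. Pairing within litters was therefore not tested. The transcript lost under the block and without ethanol 2 and ethanol + stress 2 was the short form of Htr3a, and the one lost with a filter at 1 was the low Htr7 transcript. The call of Dlg4 also ended under the block (0.20, SE 0.070). The short Htr1b transcript and the low Htr7 one rested on 0 to 17.7 estimated read pairs per library.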
